A study of Homo sapiens with 12 samples.

Results

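RNA sequencing counts were compared between LNCaP cells that received both PRMT5 knockdown and 2 Gy of radiation and cells that received neither. The comparison used the 3 libraries labelled as irradiated and doxycycline-treated and the 3 labelled as neither, 6 of the 12 libraries of the series. Libraries were assigned to the groups by their labels, and the comparison itself was chosen with earlier results of these data known. All libraries came from LNCaP, a prostate cancer line derived from a lymph node metastasis. All cells carried a short hairpin RNA against PRMT5 that doxycycline switches on. The 4 groups of 3 libraries each were knockdown plus 2 Gy (doxycycline at 1 µg/mL, renewed every 48 h, and harvest 24 h after 2 Gy), knockdown alone (the same doxycycline, 0 Gy), 2 Gy alone (no doxycycline, harvest 24 h after 2 Gy) and untreated control (no doxycycline, 0 Gy).

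The groups have limits as models. Doxycycline and the hairpin always came together in 1 engineered line, so their effects cannot be told apart. The irradiated and non-irradiated libraries were deposited in separate count tables, so radiation and any other difference between the tables cannot be told apart either. Whether the 3 libraries of each group were grown as separate cultures is not in the labels. The p-values therefore measure only how far these samples spread, which may be technical. Counts were made on whole cultures, where fewer cells of a kind and less RNA per cell cannot be told apart.

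PRMT5 is the main enzyme for symmetric arginine dimethylation, and its substrates include histone tails and the Sm proteins at the core of the spliceosome. Ionising radiation breaks DNA, and the kinases that sense the breaks stabilise p53, which switches on genes for growth arrest, repair and cell death; LNCaP is known to keep a working p53. ATF4 drives the integrated stress response. Its protein is made when translation in general is slowed, and it switches on genes for amino acid uptake, serine and asparagine synthesis and the stress factors DDIT3, ATF3 and TRIB3.

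Total gene counts ran from 23017850 to 29628545 in the knockdown plus 2 Gy libraries and from 14801939 to 22784724 in the untreated controls. Levels are given as CPM, counts scaled to a common library total after TMM normalization, and a count of 3, the limit that a count of 0 allows, lay between 0.105 and 0.135 CPM in the knockdown plus 2 Gy libraries and between 0.126 and 0.189 CPM in the controls. Library 1 of knockdown plus 2 Gy stood apart. It lay at 68.6 on the first principal component of all 12 libraries (38.0% of the variance), against 13.2 and 11.4 for libraries 2 and 3, and library 1 of 2 Gy alone lay beside it at 79.7. The chi-square per gene between library 1 and libraries 2 and 3 was 74.5 and 56.2, against 8.96 between libraries 2 and 3. The untreated controls lay between -44.6 and -35.2 on that component. The luminal prostate markers listed for LNCaP were all expressed: their summed level was 9969, 10576 and 10219 CPM in knockdown plus 2 Gy and 10821, 11080 and 10132 CPM in untreated controls, and none of the 12 was called.

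PRMT5 (ENSG00000100462.15, chromosome 14, 22920511 to 22929585, GRCh38) was measured first as a check of the labels. It stood at 31.3, 26.9 and 24.9 CPM in the knockdown plus 2 Gy libraries and at 186, 190 and 198 CPM in the untreated controls. All 3 treated libraries lay below every control library, and the treated mean was 14.5% of the control mean. The log2 fold change was -2.79 (SE 0.13, edgeR adjusted p = 5.27e-07). With 3 libraries a side, the 2-sided exact permutation p was 0.1, the lowest this design allows. Another gene overlaps 27.1% of the PRMT5 exon positions.

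Both treatments together changed 2600 of 17191 tested genes (15.1%) at a Benjamini-Hochberg adjusted p under 0.05 in edgeR's quasi-likelihood test. Of these 1299 were higher (7.56% of tested genes) and 1301 lower (7.57%). Changes of more than 1 on the log2 scale were 308 higher and 640 lower, and the median size of a called change was 0.80. In 2593 of the 2600 the libraries of both groups did not overlap, as was so for 40.9% of all tested genes. Genes that share sequence with others were called at like rates, 7.44% higher and 7.89% lower, against 7.61% and 7.43% of the genes that do not. When scaled by library size alone the median of all genes moved to -0.16, and 713 genes were called higher and 2195 lower. Fewer genes were called with 2 libraries in a group: 1328, 1200 and 1403 without knockdown plus 2 Gy library 1, 2 and 3, and 1483, 873 and 861 without untreated control library 1, 2 and 3. Without library 1 of knockdown plus 2 Gy and of untreated control (both libraries numbered 1 below) it was 978. Of the 2600, 840 were among them, none with the opposite sign.

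**Figure D1:**
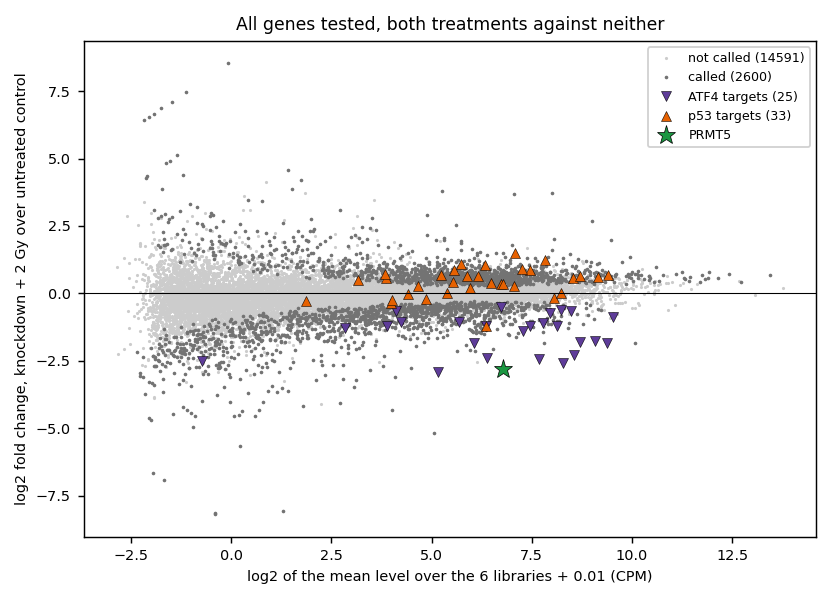
Log2 fold change of knockdown plus 2 Gy over untreated control (vertical axis) against the log2 mean level in CPM over the 6 libraries (horizontal axis), 1 point per tested gene, with the 2600 called genes in dark grey. The 25 genes of the ATF4 list (triangles pointing down) all lie below 0, most of the 33 p53 targets (triangles pointing up) lie above it, and PRMT5 (star) lies at -2.79.

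The gene lists differed in how many members were called. ATF4 targets held the greatest share of lower calls (76.0% of 25) and mitochondrially encoded messenger RNAs the greatest share of higher ones (69.2% of 13), beside 7.57% and 7.56% of all tested genes. The p53 targets followed with 42.4% of 33 higher and the Sm and snRNP assembly genes with 40.0% of 25. Of the interferon genes 24.1% of 29 were lower, and of the immediate early genes 25.0% of 20 were higher. Replication and Fanconi anemia genes had no call.

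**Figure D2:**
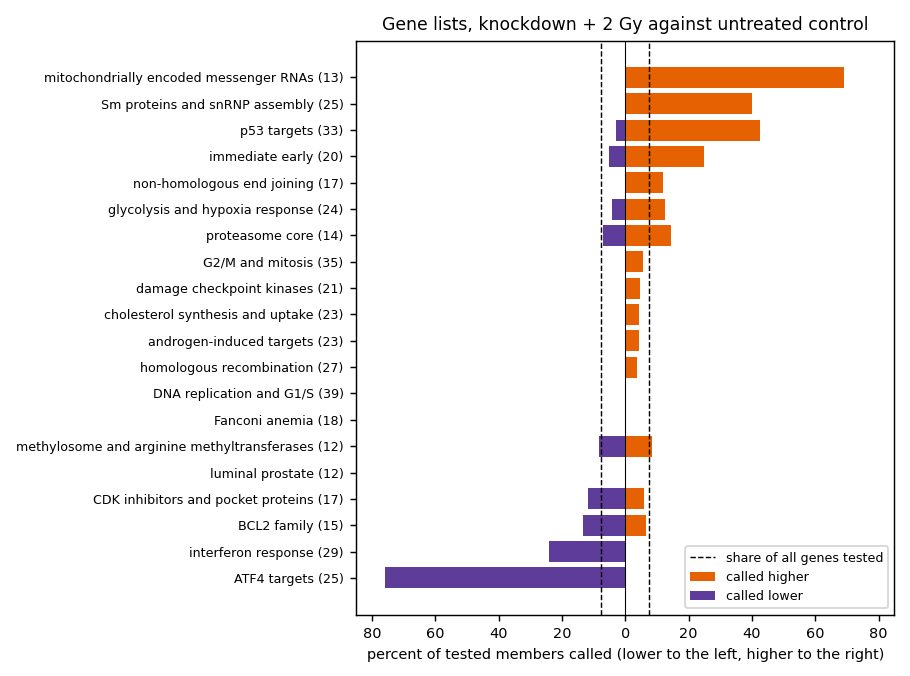
Percent of the tested members of each list that were called lower (bars to the left) or higher (bars to the right) in knockdown plus 2 Gy against untreated control, with the number of tested members in brackets; lists with under 10 tested members are not drawn. The dashed lines mark the shares of all tested genes, 7.57% lower and 7.56% higher; the ATF4 bar reaches 76.0% to the left and the mitochondrial bar 69.2% to the right.

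ATF4 and its targets were lower as a group after both treatments. Of the 25 genes 19 fell, none rose, all 25 had a negative log2 fold change (median -1.23, against -0.004 for all tested genes), and in all 25 every treated library lay below every control library, as in 20.6% of all tested genes. The summed level of the list was 2940, 3019 and 3033 CPM in knockdown plus 2 Gy and 7755, 8075 and 7975 CPM in untreated controls, so that library 1 did not stand apart here. The list was known from earlier results of these data to lie lower, and the count is a description. It was 12 without knockdown plus 2 Gy library 3 or untreated control library 3, 13 to 16 without the others, and 8 without both libraries numbered 1; 11 of the 19 stayed called whichever single library was left out.

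Several stress-induced regulators of the list fell by more than 1 on the log2 scale, while ATF4 itself and DDIT4 were not called. TRIB3, a pseudokinase that restrains AKT and ATF4 itself (chromosome 20, 362835 to 397559), stood at 71.9, 59.4 and 59.6 CPM in knockdown plus 2 Gy and at 253, 334 and 441 CPM in untreated controls. The highest treated library held less than the lowest control library by a wide margin, and the log2 fold change was -2.43 (SE 0.29, edgeR adjusted p = 0.00131). DDIT3 (CHOP), the factor that turns prolonged stress into cell death (chromosome 12, 57516588 to 57520517), stood at 27.3, 26.2 and 26.7 CPM against 101, 150 and 167 CPM in untreated controls. The treated libraries were nearly alike and the controls spread more widely; the log2 fold change was -2.38 (SE 0.28, edgeR adjusted p = 0.00131), and 28.0% of the exon positions of DDIT3 are shared with another gene. ATF3, a stress-induced repressor and activator (chromosome 1, 212565334 to 212620777), stood at 28.3, 29.5 and 29.3 CPM against 92.2, 98.5 and 122 CPM in untreated controls. No library overlapped, and ATF3 fell by 1.85 on the log2 scale (SE 0.23, edgeR adjusted p = 0.00151). The bZIP partners moved less: CEBPG fell by 1.41, CEBPB by 1.22 and ATF5 by 1.06, where the calls of CEBPG and CEBPB ended without 2 and 4 of the 6 single libraries. SESN2, a sestrin that restrains mTORC1 under stress and also a p53 target, fell by 1.22 (SE 0.21, edgeR adjusted p = 0.00491). The messenger RNA of ATF4 itself averaged 521 ± 40.3 CPM in knockdown plus 2 Gy and 948 ± 16.7 CPM in untreated controls (SD, n = 3 each), which missed the threshold at a log2 fold change of -0.86 (edgeR adjusted p = 0.0501).

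Most of the listed enzymes that make serine, asparagine and one-carbon units fell as well. PHGDH, the first enzyme of serine synthesis, stood at 229, 239 and 267 CPM in knockdown plus 2 Gy and at 783, 937 and 803 CPM in untreated controls. The groups lay far apart, and PHGDH fell by 1.78 on the log2 scale (SE 0.27, edgeR adjusted p = 0.00340). PSAT1, the aminotransferase of the next step, averaged 288 ± 15.7 CPM against 1031 ± 90.3 CPM in untreated controls (SD, n = 3 each) and fell by 1.84 (SE 0.38, edgeR adjusted p = 0.0112). ASNS, asparagine synthetase, stood at 175, 191 and 189 CPM against 656, 665 and 621 CPM in untreated controls. ASNS fell by 1.81 (SE 0.36, edgeR adjusted p = 0.00962), but its count is uncertain because 40.6% of its 50-base words match other genes. PCK2, the mitochondrial PEP carboxykinase, fell by 2.28 (SE 0.44, edgeR adjusted p = 0.00777). The mitochondrial folate enzymes MTHFD2, SHMT2 and ALDH1L2 fell by 1.21, 0.64 and 2.52, and their calls held in 3, 1 and 1 of the 6 fits with a library left out (edgeR adjusted p up to 0.0526, 0.0924 and 0.161). ALDH1L2 lay low, at 0.170 ± 0.0141 CPM against 1.03 ± 0.766 CPM in untreated controls (SD, n = 3 each). PSPH, the phosphatase that ends serine synthesis, stood at -0.52 and was not called (edgeR adjusted p = 0.151).

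Of the amino acid carriers of the list some fell and others missed the threshold. SLC3A2, the heavy chain shared by several amino acid exchangers, stood at 127, 99.1 and 91.5 CPM in knockdown plus 2 Gy and at 235, 235 and 273 CPM in untreated controls. It fell by 1.23 (SE 0.17, edgeR adjusted p = 0.00226), with no overlap. SLC7A11, the cystine carrier that feeds glutathione synthesis, averaged 88.5 ± 27.4 CPM against 536 ± 112 CPM in untreated controls (SD, n = 3 each) and fell by 2.60 (SE 0.70, edgeR adjusted p = 0.0298). The call of SLC7A11 ended whichever library was left out (edgeR adjusted p up to 0.103). CHAC1, which degrades glutathione, stood at 6.99, 9.14 and 8.81 CPM against 61.3, 68.9 and 59.6 CPM in untreated controls and fell by 2.93 (SE 0.70, edgeR adjusted p = 0.0193). Its libraries were far apart, yet its call ended without each library other than untreated control library 1 (edgeR adjusted p up to 0.0689). The leucine carrier SLC7A5 and the arginine carrier SLC7A1 stood at -1.30 and -0.71 and were not called (edgeR adjusted p = 0.0612 and 0.0981).

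**Figure D3:**
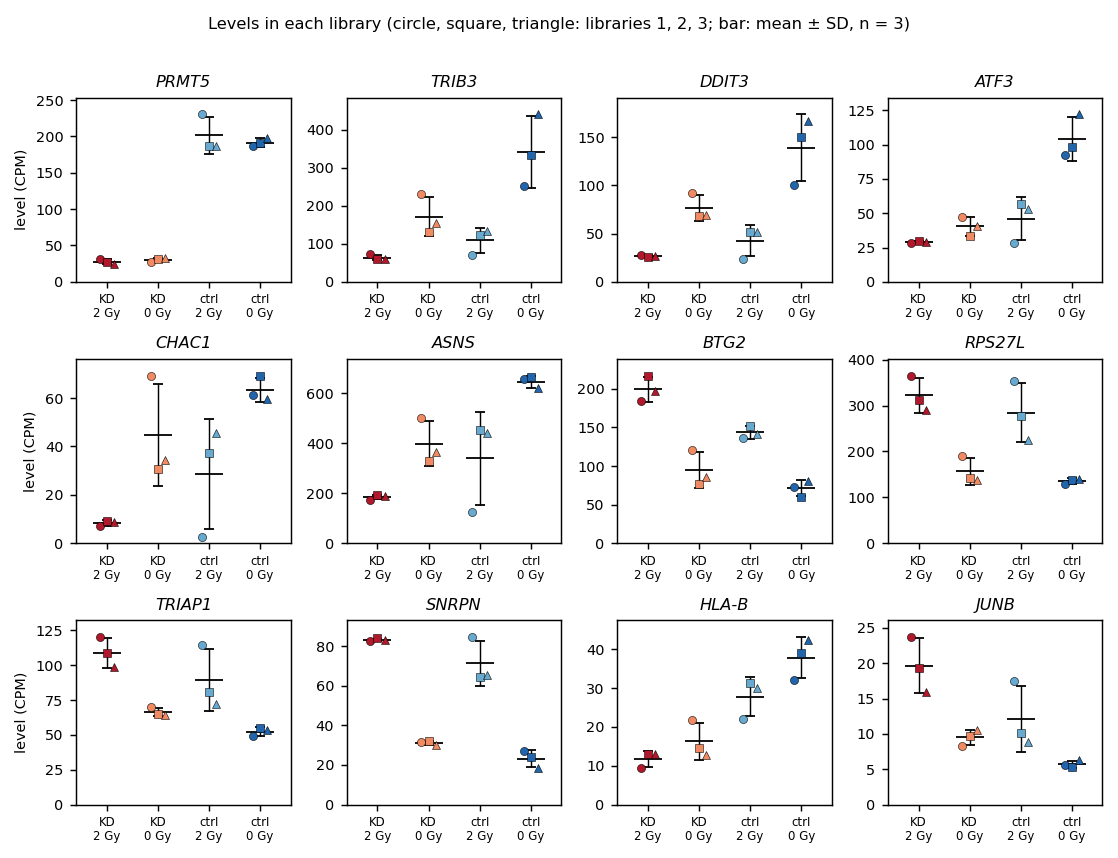
Level in CPM (vertical axes, from 0) of 12 genes in each library of the 4 groups, from left to right knockdown plus 2 Gy, knockdown alone, 2 Gy alone and untreated control; bars give the mean ± SD of 3 libraries. The knockdown plus 2 Gy points of TRIB3 (59.4 to 71.9) and HLA-B (9.49 to 13.1) lie below all untreated control points and those of BTG2 (184 to 217) above them, and PRMT5 is low in both knockdown groups.

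Each single treatment was also set against the same untreated controls. The ATF4 list's median log2 fold change was -1.23 for both treatments, -0.53 for knockdown alone and -0.66 for 2 Gy alone, with 19, 1 and 3 members called lower among 1301, 207 and 151 genes called lower in all (7.57%, 1.2% and 0.878% of tested genes). Knockdown alone changed 265 genes in either direction (1.54%) and 2 Gy alone 389 (2.26%). With replicate number as a block within each deposited table, knockdown alone changed 4776 genes (27.8%). With that block 2 ATF4 targets were called lower, beside 14.1% of all tested genes. The 3 comparisons share the control libraries, so their values are set side by side only. DDIT3 stood at -2.38 with both, -0.86 with knockdown alone and -1.71 with 2 Gy alone. ATF3 stood at -1.85, -1.37 and -1.18, and CHAC1 at -2.93, -0.50 and -1.15. In both single treatments library 1 lay away from libraries 2 and 3 for the list as a whole. The list's summed level was 7021, 4467 and 5030 CPM in knockdown alone and 2483, 5973 and 6201 CPM in 2 Gy alone. Library 1 of 2 Gy alone thus lay below every knockdown plus 2 Gy library (2940 to 3033 CPM). The medians and calls of the single treatments rest on libraries that differ in this way. CHAC1 held 69.2, 30.6 and 34.4 CPM in knockdown alone and 2.71, 37.5 and 45.5 CPM in 2 Gy alone.

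**Figure D4:**
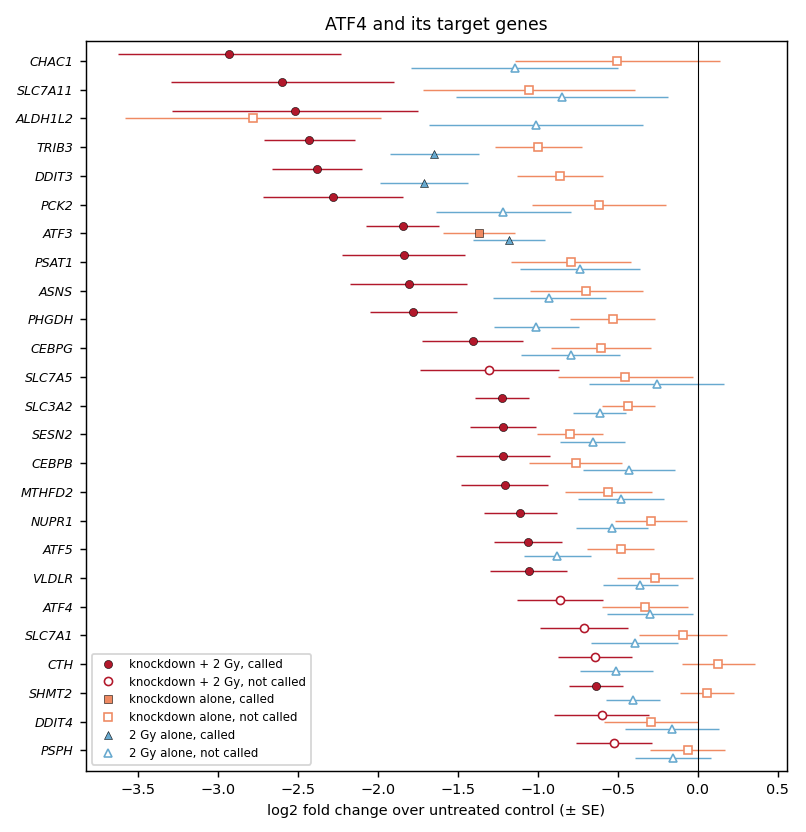
Log2 fold change over untreated control (horizontal axis, bars ± SE) of ATF4 and 24 of its targets for knockdown plus 2 Gy (circles), knockdown alone (squares) and 2 Gy alone (triangles), filled where the gene was called. All 25 circles lie left of 0, from -2.93 for CHAC1 to -0.52 for PSPH; the 3 comparisons share the untreated control libraries.

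Since the list moved as a group, the promoters of its members were read for TGATGNAA, a form of the C/EBP-ATF response element that ATF4 binds with C/EBP partners, on both strands. Promoters here are the windows from 250 bases before to 50 bases after each start site in RefSeq's annotation of GRCh38.p14, and 20 of the 25 genes had at least 1. The word was found in 6 of these 20 genes (30.0%), against 1217 of 27305 genes with a window (4.46%). The list consists of ATF4 and its known targets, so these 2 shares are set side by side only. Of the 6 genes with the word 5 were called lower. In the whole list, which includes these 6 and also genes without a window, 19 of 25 were (76.0%). Whether the word goes with the call was not tested. The matching genes called lower were ATF3, CHAC1, ASNS, SLC3A2 and CEBPG, and SLC7A1 was not called. The windows of ASNS, CHAC1 and CEBPG are printed as examples of called genes that hold the word upstream of the start site, 68, 209 and 42 bases before it; a window of ATF3 also holds it, 191 bases before a start site. The word is in capitals, and in CHAC1 it reads on the opposite strand.
ASNS: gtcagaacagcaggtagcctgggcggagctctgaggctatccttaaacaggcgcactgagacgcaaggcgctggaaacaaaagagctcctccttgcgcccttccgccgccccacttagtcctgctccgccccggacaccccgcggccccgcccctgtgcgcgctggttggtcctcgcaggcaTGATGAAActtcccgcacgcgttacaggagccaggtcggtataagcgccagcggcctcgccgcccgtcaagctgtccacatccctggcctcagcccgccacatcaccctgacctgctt
CHAC1: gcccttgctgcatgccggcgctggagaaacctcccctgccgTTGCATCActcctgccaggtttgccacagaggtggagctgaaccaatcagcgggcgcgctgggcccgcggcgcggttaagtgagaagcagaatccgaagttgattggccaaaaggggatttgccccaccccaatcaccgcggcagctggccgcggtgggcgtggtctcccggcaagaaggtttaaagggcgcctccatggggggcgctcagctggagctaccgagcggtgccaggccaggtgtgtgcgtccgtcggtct
CEBPG: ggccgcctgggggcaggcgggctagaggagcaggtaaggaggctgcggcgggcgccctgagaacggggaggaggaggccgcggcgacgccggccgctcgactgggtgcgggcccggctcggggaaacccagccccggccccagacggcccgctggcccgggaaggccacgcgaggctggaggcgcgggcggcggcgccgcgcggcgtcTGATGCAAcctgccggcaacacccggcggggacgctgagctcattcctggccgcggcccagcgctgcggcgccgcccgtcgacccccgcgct
These windows lie at chr7:97872359-97872658 (minus strand), chr15:40953221-40953520 (plus strand) and chr19:33373863-33374162 (plus strand). A match is a run of letters and no measure of binding, and windows of TRIB3 and DDIT3, which fell as much, held none.

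Targets of p53 moved the other way. Of 33 tested genes 14 rose, 1 fell and 25 had a positive log2 fold change (median 0.51); the share called higher was 42.4%, beside 7.56% of all tested genes. BTG2, an antiproliferative gene (chromosome 1, 203305491 to 203309602), stood at 184, 217 and 197 CPM in knockdown plus 2 Gy and at 73.2, 60.4 and 80.1 CPM in untreated controls. The lowest treated library was above the highest control library, and BTG2 rose by 1.48 on the log2 scale (SE 0.17, edgeR adjusted p = 0.00101). RPS27L, a ribosomal protein relative that p53 induces (chromosome 15, 63125872 to 63158021), stood at 365, 313 and 290 CPM against 129, 138 and 139 CPM in untreated controls. It rose by 1.25 with no overlap (SE 0.18, edgeR adjusted p = 0.00251). TRIAP1, an apoptosis inhibitor of the mitochondrial intermembrane space, stood at 120, 109 and 98.5 CPM against 49.0, 54.6 and 53.5 CPM in untreated controls and rose by 1.06 (SE 0.16, edgeR adjusted p = 0.00292).

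Further p53 targets of arrest, metabolism and death also rose. The sestrin SESN1 rose by 0.88 (SE 0.14, edgeR adjusted p = 0.00367), where its relative SESN2 fell. BAX, which opens the mitochondrial outer membrane, averaged 72.1 ± 14.0 CPM in knockdown plus 2 Gy and 33.8 ± 3.78 CPM in untreated controls (SD, n = 3 each) and rose by 1.09 (SE 0.22, edgeR adjusted p = 0.00955). TIGAR, a fructose bisphosphatase that slows glycolysis, rose by 0.86, with 42.6% of its 50-base words found elsewhere among the transcripts. MDM2, the ubiquitin ligase that turns p53 over, stood at 391, 565 and 571 CPM against 314, 320 and 351 CPM in untreated controls and rose by 0.63 (SE 0.18, edgeR adjusted p = 0.0402). Its call held only without knockdown plus 2 Gy library 1 when a library was left out (edgeR adjusted p up to 0.115). CDKN1A, the p21 inhibitor of cyclin-dependent kinases, averaged 446 ± 39.9 CPM against 298 ± 62.6 CPM in untreated controls (SD, n = 3 each) and was not called at 0.58 (edgeR adjusted p = 0.0702). The death genes BBC3 and FAS and the damage gene GADD45A stood at -0.35, 0.58 and -0.20 and were not called (edgeR adjusted p = 0.360, 0.0665 and 0.587).

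The p53 count depended on the libraries and the scaling. It was 13 without knockdown plus 2 Gy library 1, 7 without knockdown plus 2 Gy library 2 or 3 or untreated control library 1 or 3, and 6 without untreated control library 2. BTG2, RPS27L, TRIAP1, SESN1, TIGAR and BAX were the 6 that stayed called higher whichever library was left out. Scaled by library size alone 7 were called higher, and without both libraries numbered 1 it was 6; the median stayed positive in each (0.35 and 0.47). With the same untreated controls, the median was 0.04 for knockdown alone, with 0 members called higher, and 0.21 for 2 Gy alone, with 4 called higher, among 58 and 238 genes called higher in all (0.337% and 1.38% of tested genes). With the block within tables, 8 were called higher and 3 lower in knockdown alone, beside 13.7% and 14.1% of all tested genes.

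**Figure D5:**
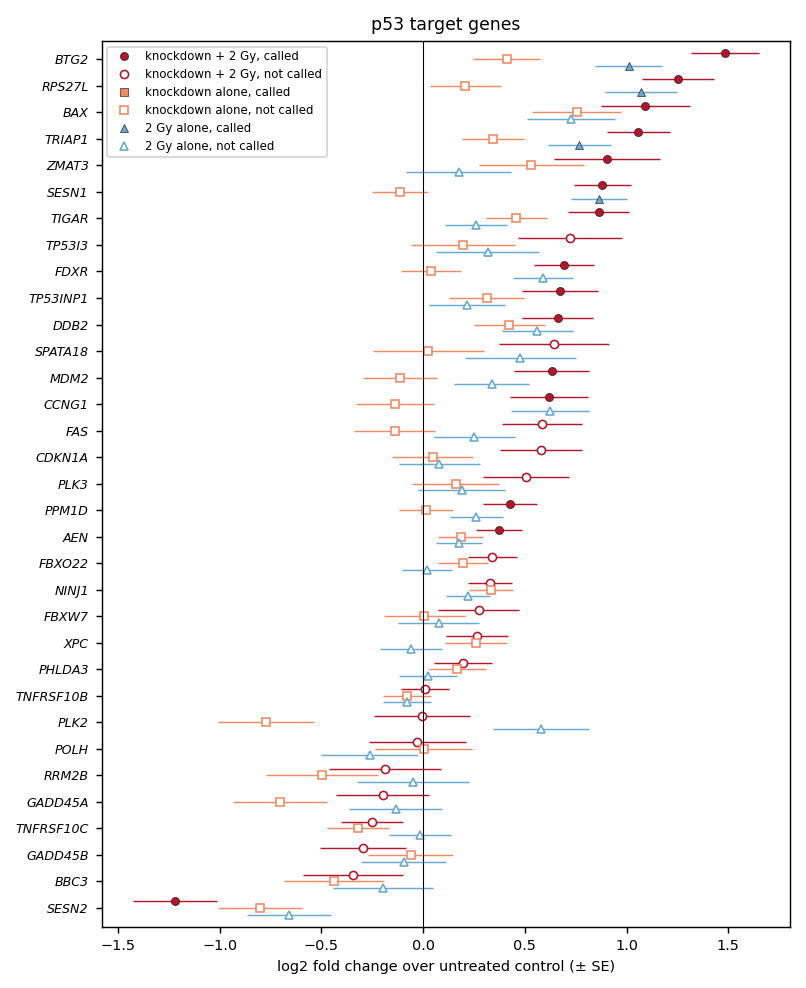
Log2 fold change over untreated control (horizontal axis, bars ± SE) of the 33 tested p53 targets for knockdown plus 2 Gy (circles), knockdown alone (squares) and 2 Gy alone (triangles), filled where the gene was called. The circles run from 1.48 for BTG2 to -1.22 for SESN2, and 14 filled circles lie right of 0; the 3 comparisons share the untreated control libraries.

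Sm proteins are substrates of PRMT5, and of 25 tested genes for the Sm core and its assembly 10 rose, none fell and 24 were positive (median 0.63). The summed level of the list was 2190, 1594 and 1579 CPM in knockdown plus 2 Gy and 1116, 1218 and 1136 CPM in untreated controls, with treated library 1 the highest. The median was 0.41 without treated library 1 and 0.38 without both libraries numbered 1. With the same untreated controls it was 0.28 for knockdown alone and 0.58 for 2 Gy alone. In knockdown alone 14 members were called higher with the block within tables, beside 13.7% of all tested genes. Without the block 0 members were called higher, beside 0.337% of all tested genes. SNRPN, an Sm protein gene of the imprinted region of chromosome 15 (24823637 to 24978723), stood at 82.8, 84.0 and 82.9 CPM in knockdown plus 2 Gy and at 27.0, 24.1 and 18.3 CPM in untreated controls. It rose by 1.85 (SE 0.15, edgeR adjusted p = 9.53e-05), with 39.2% of its exon positions shared with another gene. SNRPA, a protein of the U1 particle, averaged 41.7 ± 9.01 CPM against 19.7 ± 3.09 CPM in untreated controls (SD, n = 3 each) and rose by 1.08 (SE 0.21, edgeR adjusted p = 0.00776). SNRPB2, a protein of the U2 particle, rose by 0.68 (SE 0.14, edgeR adjusted p = 0.0120), and the Sm proteins SNRPD1, SNRPD2, SNRPD3 and SNRPG rose by 0.63, 0.89, 0.71 and 0.69. SMN1, the assembly factor mutated in spinal muscular atrophy, stood at 0.04 (edgeR adjusted p = 0.896), with 86.5% of its 50-base words shared. Only SNRPN, SNRPA and SNRPB2 stayed called whichever library was left out: the count was 3 without knockdown plus 2 Gy library 1 or any 1 untreated control library and 5 without knockdown plus 2 Gy library 2 or 3. It was 5 when scaled by library size alone and 2 without both libraries numbered 1.

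Messenger RNAs of the mitochondrial genome were also higher. All 13 had positive values without overlap between the groups, as had 20.3% of all tested genes, and 9 rose (median 0.56). Mitochondrial genes took 7.02 ± 0.443% of counts in knockdown plus 2 Gy and 5.49 ± 0.392% in untreated controls (SD, n = 3 each, 2-sided exact permutation p = 0.1, the smallest possible). The share was 6.95 ± 0.350% in 2 Gy alone and 6.09 ± 0.108% in knockdown alone (SD, n = 3 each). With the same untreated controls, the list's median was 0.43 for 2 Gy alone and 0.28 for knockdown alone. MT-CYB, the cytochrome b subunit, stood at 4143, 4619 and 4765 CPM against 2927, 3124 and 3148 CPM in untreated controls and rose by 0.56 (SE 0.12, edgeR adjusted p = 0.0108). MT-ND3, a complex I subunit, rose by 1.18 (SE 0.23, edgeR adjusted p = 0.00926), with 917 CPM in treated library 1 and 523 and 668 CPM in libraries 2 and 3, against 253, 372 and 307 CPM in untreated controls. MT-CO1, the largest oxidase subunit, stood at 0.19 and was not called (edgeR adjusted p = 0.248). Of the 13 genes 8 share sequence with another gene, such as nuclear copies, and among the other 5 genes 3 were called. The count was 5 without knockdown plus 2 Gy library 1 or 3 or untreated control library 1, 4 without untreated control library 3, and 1 without both libraries numbered 1.

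Of 29 tested interferon-response genes 7 fell (24.1%, beside 7.57% of all tested genes), none rose and 22 were negative (median -0.47). The summed level of the list overlapped between the groups: it was 949, 829 and 752 CPM in knockdown plus 2 Gy and 834, 736 and 742 CPM in untreated controls, and it was highest in treated library 1. HLA-B, which presents peptides to T cells (chromosome 6, 31353872 to 31357188), stood at 9.49, 13.1 and 13.0 CPM in knockdown plus 2 Gy and at 32.1, 39.2 and 42.4 CPM in untreated controls. It fell by 1.68 (SE 0.22, edgeR adjusted p = 0.00196), with 18.0% of its exon positions shared with another gene. HLA-C stood at 35.2, 36.7 and 35.0 CPM against 58.5, 57.1 and 66.0 CPM in untreated controls and fell by 0.77 (SE 0.13, edgeR adjusted p = 0.00409). ISG20, an interferon-induced RNA exonuclease, fell by 1.12 (SE 0.20, edgeR adjusted p = 0.00643). IFI35, IFI27, RSAD2 and IFIT2 lay at low levels, below 14 CPM in every library, and were called lower, with log2 fold changes of -1.90 for RSAD2 and -1.76 for IFIT2; the call of IFIT2 ended whichever library was left out. HLA-B, HLA-C and ISG20 stayed called whichever library was left out; the count was 3 without knockdown plus 2 Gy library 2 or untreated control library 2, 4 without knockdown plus 2 Gy library 1 or 3 or untreated control library 1, and 3 without both libraries numbered 1.

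Immediate early genes, which growth factors and stress switch on within minutes, split. JUNB, an AP-1 subunit, stood at 23.7, 19.3 and 15.9 CPM in knockdown plus 2 Gy and at 5.53, 5.31 and 6.27 CPM in untreated controls. It rose by 1.78 without overlap (SE 0.25, edgeR adjusted p = 0.00251). MYC, the growth transcription factor, stood at 442, 410 and 402 CPM against 296, 201 and 195 CPM in untreated controls and rose by 0.86 (SE 0.16, edgeR adjusted p = 0.00661). IER5, IER2 and the serum response factor gene SRF rose by 1.23, 0.72 and 0.83, and the tumour suppressor gene KLF6 fell by 0.83. Of 20 tested members 5 rose and 1 fell (median 0.24); with 1 library left out 4 were called higher in each case, and the calls of SRF and KLF6 ended in 6 and 4 of the 6. Without both libraries numbered 1 it was 3.

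Regulators of cell death and the cell cycle gave single changes. HRK, a BH3-only activator of cell death, stood at 0.230, 0.563 and 0.404 CPM in knockdown plus 2 Gy and at 4.15, 5.35 and 5.31 CPM in untreated controls. It fell by 3.61 (SE 0.64, edgeR adjusted p = 0.00604). CDKN2B, the p15 inhibitor of CDK4 and CDK6, also lay low, at 0.634 ± 0.137 CPM against 2.26 ± 0.212 CPM in untreated controls (SD, n = 3 each), and fell by 1.82 (SE 0.35, edgeR adjusted p = 0.00838). BCL2L2, a death inhibitor, fell by 0.47, a call that ended without 4 of the 6 single libraries (edgeR adjusted p up to 0.107). HRK, BCL2L2 and BAX were the 3 calls among 15 BCL2 family genes (6.67% higher and 13.3% lower, beside 7.56% and 7.57% of all tested genes). VEGFA, the angiogenic growth factor, stood at 89.4, 78.6 and 74.3 CPM against 165, 176 and 194 CPM in untreated controls and fell by 1.14 (SE 0.23, edgeR adjusted p = 0.0103), where the glycolysis genes LDHA and PFKFB3 rose by 1.09 and 1.01. The calls of LDHA and PFKFB3 ended whichever library was left out, and their treated library 1 lay far above the other two. PSMB5, a catalytic proteasome subunit, fell by 1.15 (SE 0.20, edgeR adjusted p = 0.00496).

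Repair and proliferation lists were called at shares on both sides of the 7.56% of all tested genes that were higher: 11.8% of end joining, 5.71% of G2/M and 3.70% of recombination genes. Of 17 end joining genes 2 rose: XRCC5, the Ku80 subunit, averaged 448 ± 45.2 CPM in knockdown plus 2 Gy and 284 ± 9.02 CPM in untreated controls (SD, n = 3 each; log2 fold change 0.66, edgeR adjusted p = 0.0140), and TDP1, which clears trapped topoisomerase from DNA ends, rose by 1.01 (edgeR adjusted p = 0.0109). BARD1, the partner of BRCA1, rose by 1.05 (SE 0.23, edgeR adjusted p = 0.0128) as the only call among 27 recombination genes, and none of 18 Fanconi anemia genes or 39 replication genes was called. Of 35 G2/M genes CKS2 and CCNB1 rose by 1.27 and 0.93. The call of TDP1 ended without untreated control library 3, that of BARD1 without control library 2 or 3, that of XRCC5 without knockdown plus 2 Gy library 1 or 2 or control library 2, that of CKS2 without knockdown plus 2 Gy library 1 or control library 2 or 3, and that of CCNB1 without any library other than control library 1. The mean log2 CPM of the G2/M list was 4.32, 3.53 and 3.46 in knockdown plus 2 Gy and 4.42, 2.10 and 2.70 in untreated controls. Control library 1 thus lay above every treated library, and control libraries 2 and 3 lay below them all. The list's median fold change was 0.36, moved to 1.43 without untreated control library 1, was 0.02 without knockdown plus 2 Gy library 1 and -0.03 without untreated control library 2. The median of the replication list was 0.38, and -0.20 without knockdown plus 2 Gy library 1. Whether the share of dividing cells in single cultures moved the other lists was not tested.

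Other lists gave scattered calls, beside 7.56% higher and 7.57% lower of all tested genes. Called higher were 8.33% of the methylosome, 14.3% of the proteasome, 5.88% of the CDK inhibitor and 4.76% of the checkpoint genes. Of the androgen-induced targets and of the cholesterol genes 4.35% each were called higher. Called lower were 8.33% of the methylosome, 7.14% of the proteasome, 11.8% of the CDK inhibitor genes and 0% of the others. Among 12 methylosome and arginine methyltransferase genes PRMT9 rose by 1.05 (edgeR adjusted p = 0.0181) and PRMT5 fell; the call of PRMT9 ended without 4 of the 6 single libraries. Of 14 proteasome core genes PSMA6 and PSMA4 rose by 2.17 and 0.55 and PSMB5 fell. PSMA6 shares 10% or more of its sequence with another gene, so its count is uncertain. The call of PSMA4 held in 1 of the 6 fits with a library left out. Of 17 CDK inhibitor and pocket protein genes TFDP1 rose by 0.49 and CDKN2B and LIN54 fell. The calls of TFDP1 and LIN54 ended whichever library was left out (edgeR adjusted p up to 0.171 and 0.0981). Of 23 androgen-induced targets MED28 alone rose, by 0.45. Of 23 cholesterol genes 20 were positive (median 0.47), beside 8554 of all 17191 tested genes. CYP51A1 was called higher, with 78.6% of its sequence shared and a call that ended whichever library was left out (edgeR adjusted p up to 0.141). Among 21 checkpoint kinase genes MDM4 rose by 0.39, a call that ended whichever library was left out. None of the tested senescence secretory (7), leukocyte (2), endothelial (2) or basal epithelial (3) genes was called.

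Genes outside these lists were among the 12 that moved furthest each way. FAM129A, a stress-induced gene also called NIBAN1, stood at 0.768, 2.39 and 2.16 CPM in knockdown plus 2 Gy and at 39.0, 63.1 and 91.3 CPM in untreated controls, and it fell by 5.18 (SE 0.83, edgeR adjusted p = 0.00399). SLITRK5, known from nerve cells as a synaptic adhesion molecule, stood at 0.538, 2.39 and 1.66 CPM against 31.7, 30.1 and 30.2 CPM in untreated controls and fell by 4.31 (SE 0.61, edgeR adjusted p = 0.00251). DMGDH, which breaks down dimethylglycine in mitochondria, fell by 3.46, the neutral amino acid carrier SLC1A4 by 3.11 and the kinase A anchor AKAP5 by 2.76. These 5 stayed called whichever library was left out. ADARB2, a brain relative of the RNA-editing enzymes, and ZMAT1 fell by 4.07 and 3.21, with calls that ended without 5 and 4 of the 6 single libraries. ADARB2 stood at 0.0384, 0.985 and 1.21 CPM in knockdown plus 2 Gy, with library 1 below the 3-count limit of 0.115 CPM. It stood at 0, 1.09 and 0.910 CPM in 2 Gy alone and at 1.98, 18.0 and 10.7 CPM in knockdown alone. The level of ADARB2 thus followed the deposited table, from which 2 Gy cannot be told apart.

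Among the 12 largest rises, 7 genes share 10% or more of their sequence with another gene, and their counts are uncertain. RPL26, a ribosomal protein gene, stood at 543, 435 and 460 CPM in knockdown plus 2 Gy and at 39.0, 36.0 and 34.1 CPM in untreated controls. Its level in 2 Gy alone was 538, 448 and 412 CPM and in knockdown alone 37.5, 37.6 and 34.4 CPM, so the level followed the deposited table, from which 2 Gy cannot be told apart. MT-ATP8 and the mitochondrial pseudogene MTND2P28 rose by 2.67 and 3.80 and were likewise high in both irradiated groups. Of the genes that share little sequence, CBLN2, a synaptic organiser, stood at 151, 313 and 273 CPM against 44.2, 7.29 and 6.42 CPM in untreated controls and rose by 3.69 (SE 0.69, edgeR adjusted p = 0.00713). CBLN2 stood at 130, 118 and 112 CPM in 2 Gy alone and at 73.6, 23.1 and 35.9 CPM in knockdown alone. GNAI1, an inhibitory G protein subunit, rose by 2.89 (SE 0.59, edgeR adjusted p = 0.0102), a call that ended without untreated control library 2 (edgeR adjusted p = 0.0540). GNAI1 was likewise high in both irradiated groups. It averaged 46.0 ± 28.2 CPM in 2 Gy alone and 9.67 ± 7.15 CPM in knockdown alone (SD, n = 3 each).

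Further rises among genes that share under 10% of their sequence were added after their values were seen. HSPB1, the small heat shock protein HSP27, stood at 248.9, 174 and 175 CPM in knockdown plus 2 Gy and at 58.6, 64.7 and 48.3 CPM in untreated controls and rose by 1.80 (SE 0.32, edgeR adjusted p = 0.00584). SEMA3C, a secreted guidance factor, averaged 54.6 ± 23.4 CPM against 13.9 ± 8.68 CPM in untreated controls (SD, n = 3 each) and rose by 1.99 (SE 0.48, edgeR adjusted p = 0.0198). TWIST1, a transcription factor of mesenchymal cells, stood at 39.4, 16.5 and 13.1 CPM against 7.73, 6.66 and 6.61 CPM in untreated controls and rose by 1.72 (SE 0.48, edgeR adjusted p = 0.0345). In all 3 genes treated library 1 was the highest. TWIST1 stood at 53.4, 20.7 and 16.1 CPM in 2 Gy alone and at 5.29, 3.97 and 6.82 CPM in knockdown alone. Its level thus followed the deposited table, from which 2 Gy cannot be told apart. SEMA3C averaged 45.4 ± 19.7 CPM in 2 Gy alone and 18.7 ± 8.70 CPM in knockdown alone (SD, n = 3 each). For HSPB1 these means were 153 ± 88.1 and 110 ± 13.8 CPM.

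Most markers of other cell types did not pass the filter on counts, and the tested ones were not all low. Of 15 neuroendocrine markers 4 were tested; SYT4, a vesicle protein gene, rose by 1.99 (SE 0.36, edgeR adjusted p = 0.00643), while CHGA and NCAM1 had no more than 2 counts in any library. The summed level of the tested neuroendocrine markers was 132 to 292 CPM in knockdown plus 2 Gy and 354 to 451 CPM in untreated controls. Of these 4 markers 3 had a negative log2 fold change (median -0.49), and none was called lower. Of 12 fibroblast markers 6 were tested, with a summed level of 21.3 to 23.4 CPM against 13.5 to 34.0 CPM in untreated controls. COL3A1 rose by 2.31 (SE 0.46, edgeR adjusted p = 0.00936) and averaged 2.56 ± 0.519 CPM in knockdown plus 2 Gy and 0.528 ± 0.325 CPM in untreated controls (SD, n = 3 each), while COL1A2 and PDGFRA had 0 counts in all 12 libraries. Of the leukocyte markers, CD3E, MS4A1 and FCGR3A had 0 counts in all 12 libraries, and the 2 tested ones summed to 97.9 to 242 CPM in knockdown plus 2 Gy and 48.6 to 73.9 CPM in untreated controls, nearly all of it LCP1. The part of these markers in the other results was not tested.

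The difference from each single treatment was tested in the same model. Against knockdown alone, knockdown plus 2 Gy differed in 615 of 17191 genes (3.58%), 374 higher and 241 lower. Of the p53 targets 6 were higher and none lower (2.18% of all tested genes were higher): BTG2, RPS27L, TRIAP1, SESN1, FDXR and MDM2. BTG2 averaged 199 ± 16.7 CPM in knockdown plus 2 Gy and 94.8 ± 23.5 CPM in knockdown alone (SD, n = 3 each; log2 difference 1.07, edgeR adjusted p = 0.00892). Of the ATF4 list 5 were lower (1.4% of all tested genes were): TRIB3, DDIT3, SLC3A2, PHGDH and SHMT2, by 1.43, 1.52, 0.79, 1.25 and 0.70. The total was 280, 93 and 220 without knockdown plus 2 Gy library 1, 2 and 3. It was 284 and 264 without untreated control library 2 and 3, which enter only through the shared spread and filter. No library of knockdown alone was left out in these fits.

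Against 2 Gy alone, knockdown plus 2 Gy differed in 51 genes (0.297%), 1 higher (0.00582%) and 50 lower (0.291%). PRMT5 stood at -2.86 (SE 0.13, edgeR adjusted p = 1.20e-06), and PSMB5, HLA-C and HLA-B were lower by 1.39, 0.87 and 1.23 (edgeR adjusted p = 0.0142, 0.0142 and 0.0454). SLITRK5 was lower by 3.80 (edgeR adjusted p = 0.0205). No ATF4 or p53 target was called without a replicate block, and the list medians were -0.67 and 0.18. The total was 7 without knockdown plus 2 Gy library 2, 4 without library 3 and 26 without untreated control library 3. No library of 2 Gy alone was left out in these fits.

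Same-numbered libraries of the irradiated groups deviated together, and 1974 genes differed from 2 Gy alone with replicate number as a block within each deposited table (11.5%), 934 higher (5.43%) and 1040 lower (6.05%), all 51 among them. The added calls rested on some pairs more than others: the total was 1847, 354 and 282 without the irradiated libraries numbered 1, 2 and 3, and 3449, 1588 and 1721 without the non-irradiated ones. Of 33 p53 targets 8 were higher with the block, such as TP53INP1 by 0.47 and BTG2 by 0.47 (edgeR adjusted p = 0.00405 and 0.0105). This count ran from 0 to 13 with 1 pair of libraries left out. Of 20 immediate early genes 6 were higher, among them the phosphatase gene DUSP4, which dampens MAP kinase signals, by 0.76 (edgeR adjusted p = 0.000195), and the count ran from 1 to 8. Of 25 ATF4 targets all were negative (median -0.61) and VLDLR, a lipoprotein receptor, was lower (edgeR adjusted p = 0.0355). All 35 G2/M genes were negative (median -1.06), of which BUB3, a spindle checkpoint gene, was called, and with 1 pair left out 0 to 33 were. TP53INP1, DUSP4, VLDLR and BUB3 were chosen after their values were seen.

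No gene departed from the sum of both single effects on the log2 scale in edgeR's quasi-likelihood test (0 of 17191, smallest adjusted p = 0.999967). At an unadjusted p under 0.05 there were 350 genes, 115 with a positive and 235 with a negative departure. DESeq2 called 1 gene and limma-voom 0. Without library 1 of knockdown plus 2 Gy and of untreated control edgeR called 55, all negative. Library 1 of 2 Gy alone and of knockdown alone stayed in that fit. With the block within tables edgeR called 0 and 2093 genes had an unadjusted p under 0.05, but without the non-irradiated libraries numbered 1 it called 712, 244 positive and 468 negative, and without those numbered 3 it called 1. The median departure was -0.22 for the ATF4 list, 0.14 for the p53 targets and -1.87 for the G2/M list, where CCNB1 stood at -1.07 (unadjusted p = 0.0144).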

How the data were processed

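RNA was sequenced from 12 LNCaP libraries, 3 for each combination of doxycycline and radiation. The authors deposited raw gene counts in 2 tables, 6 libraries in each, whose headers are those featureCounts writes. STAR 2.5, featureCounts from Subread 1.5.3, edgeR 3.20.8 and the build GRCh38 are listed per the submitters' processing notes. The sources used here do not give aligner options, strand setting or annotation release, so counts of genes that overlap or share sequence are uncertain. A gene is marked as sharing sequence where 10% or more of its 50-base transcript words or of its exon positions occur in another gene.

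The tables were joined by gene identifier, and columns were assigned to samples through the numbers in the labels. They list 63299 genes, 34300 with any count; filterByExpr (minimum count 10, minimum total 15) kept 17191. Total counts per library ran from 14801939 to 33158865. In R 4.3.3, edgeR 4.0.16 scaled libraries by TMM and fitted all 12 libraries together, robustly, by quasi-likelihood with 1 mean for each group (8 residual degrees of freedom, biological coefficient of variation 0.216). A call is a Benjamini-Hochberg p below 0.05, adjusted over all tested genes. A standard error is the absolute log2 fold change over the square root of the F statistic. Log2 CPM used a prior count of 2. Alternatives were scaling by library size, no filter, replicate number as a block, only the 6 libraries, limma-voom (limma 3.58.1) and DESeq2 1.42.0. Each library of knockdown plus 2 Gy and of untreated control was also left out in turn. Libraries of the single treatments were left out only as pairs, in the block within tables. Genes that share no sequence and leaving out both libraries numbered 1 were added after seeing the data. These are library 1 of knockdown plus 2 Gy and of untreated control. Same-numbered libraries deviated together within a deposited table (correlation of deviations from the group means 0.775, 0.613 and 0.607 between the irradiated groups and 0.233, 0.255 and 0.296 between the non-irradiated ones), so replicate number as a block within each table (4 residual degrees of freedom) was also added for comparisons inside a table. The procedures were tested on simulated data.

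Named genes were PRMT5, the 12 called genes that moved furthest each way (with a gene symbol, 5 CPM or more on average and separate groups) and up to 4 members of each of 26 lists with the smallest p; further list members illustrate a list. The comparison, its members and the lists were chosen with earlier results of these data known, so list counts are descriptions without a test of their own.
Some items are not reported here.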

Additional observations from a re-analysis of the deposited data

How the results depend on the processing

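In each alternative that gave a value, none of the 2600 calls for both treatments turned its sign, and with DESeq2, the replicate block and limma-voom 2573, 2550 and 2454 of them were called the same way. The count of calls ran from 861 to 1483 with 1 library left out (1328, 1200 and 1403 without knockdown plus 2 Gy library 1, 2 and 3) and was 978 without both libraries numbered 1. Against knockdown alone it was 1157 with the replicate block, 1438 in DESeq2, 261 without both libraries numbered 1 and 93 to 485 with 1 left out. Against 2 Gy alone it was 265 in DESeq2, 18 without both libraries numbered 1 and 4 to 40 with 1 left out. Departures numbered 1 in DESeq2, 55 without both libraries numbered 1 and 0 with 1 left out. In these fits only libraries of knockdown plus 2 Gy or untreated control were left out. None of 2 Gy alone or knockdown alone was, so these ranges do not cover how far the totals rest on those libraries. The block gave 3498 calls for both treatments, 73 against 2 Gy alone and 0 departures; the labels tie no number to a culture or batch, same-numbered libraries' deviations correlated at 0.061, -0.020 and 0.096 between knockdown plus 2 Gy and untreated control and at -0.045, 0.023 and -0.0086 between knockdown plus 2 Gy and knockdown alone, and the numbers were not taken as pairs across the deposited tables. Within the tables they were: the block there gave 1974 calls against 2 Gy alone (282 to 3449 with 1 pair left out) and 0 departures (0 to 712).

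With 1 library left out, members called ran from 12 to 16 for ATF4 targets, 6 to 13 for p53 targets, 3 to 5 for Sm genes, 4 to 8 for mitochondrial messenger RNAs, 3 to 5 for interferon genes and 4 in each case for immediate early genes. Without both libraries numbered 1 they were 8, 6, 2, 1, 3 and 3 in the same order. Scaled by library size p53 calls were 7 and Sm calls 5; among genes that share no sequence mitochondrial calls were 3 and immediate early calls 3. PRMT5 ran from -2.89 to -2.72 and the mitochondrial difference from 1.32 to 1.76 percentage points. Of 109 called genes that are named or in a list, 52 stayed called whichever library was left out.

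Uncalled genes of low or uneven level turned sign. With 1 library left out TIMP2 ran from -0.41 to 0.063, LUM from -1.45 to 0.061, VIM from -1.17 to 0.49, KRT14 from -0.51 to 0.82 and the basal epithelial median from -0.15 to 0.82. Without both libraries numbered 1 TIMP2 stood at 0.022, LUM at 0.36, COL5A1 at 0.077, VIM at 0.54, CD4 at -0.11, KRT14 at -0.46 and the basal epithelial median at -0.22. The senescence median stood at -0.027 in the fit of 6 libraries. The cause was not tested. The limit of 3 counts covers counting error only, and 3 libraries a group limit what can be called.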
